A study of Saccharomyces cerevisiae with 4 samples.

Results

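The mRNAs of cohesin and condensin subunits, with that of the cohesin loader SCC2, were compared between a tDNA-less budding yeast strain and its wild type. The tDNA-less strain carries deletions of tRNA genes of chromosome III. The members were taken by systematic name, and all 10 were found among the 6706 reading frames of each library. They comprise 4 cohesin genes (SMC1, SMC3, MCD1 and IRR1), 1 loader gene (SCC2) and 5 condensin genes (SMC2, SMC4, BRN1, YCS4 and YCG1). The tDNA-less strain, JKY690, is a MATa strain of the W-303 background carrying ade2-1, trp1-1 and ura3-1. Its label lists the chromosome III deletions t0D, t1D, t3D, t4D, t5D, t6D and t7D, the joint replacement t8D+t9D::LEU2, and T1+T7::HIS3. The labels do not say which tRNA gene each numbered deletion is. The wild type, JRY2334, is also MATa and W-303 and shares ade2-1, trp1-1 and ura3-1. It further carries his3-11,15, can1-100 and a mutant leu2 allele. Each group is 1 strain measured in 2 libraries from cells in early log phase in rich medium (YPD), with no treatment, so the tRNA gene deletions, the marker genes and any other difference between these strains cannot be told apart. The labels call the libraries biological replicates.

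Cohesin and condensin are ring-shaped protein complexes built on a pair of long SMC ATPases, closed by a kleisin subunit and bound by HEAT-repeat subunits. Cohesin holds sister chromatids together from S phase to anaphase and forms chromatin loops, and condensin compacts chromosomes for segregation. In budding yeast the cohesin loader and condensin are known to be found at tRNA genes, where condensin takes part in the clustering of these genes. The comparison measures whether the mRNA of these proteins differed between the strains, and it holds no measurement of their binding.

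Libraries held 12.9 M and 14.5 M estimated counts in the tDNA-less strain, against 12.5 M and 19.8 M in wild type. The 4 reading frames with the most counts took 45.1% and 36.1% of the tDNA-less libraries, against 39.6% and 30.6% of the wild-type libraries. The a-mating-type markers summed to between 15388 and 24140 TPM (a level per length, scaled to a fixed library total) over the 4 libraries. The alpha-specific markers summed to between 16.1 and 24.4 TPM. Most of the a-marker sum was MFA2 and MFA1, short reading frames of 117 and 111 bases (means of 15900 and 3825 TPM). The other a-markers had means from 31.1 TPM (STE6) to 375 TPM (AGA2). Among the alpha-specific markers, MF(ALPHA)2 had a mean of 10.9 TPM and SAG1 one of 8.77 TPM.

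None of the 10 genes lies on chromosome III in the R64 reference assembly, where 10 tRNA genes are annotated on that chromosome. They lie on 6 other chromosomes, each as 1 coding exon with no overlapping annotated gene. In the cohesin group, SMC1 (YFL008W) is at chrVI:119429-123106 on the plus strand, SMC3 (YJL074C) at chrX:299157-302849 on the minus strand, MCD1 (YDL003W) at chrIV:444683-446383 on the plus strand and IRR1 (YIL026C) at chrIX:304477-307929 on the minus strand. The loader gene SCC2 (YDR180W) is at chrIV:821295-825776 on the plus strand. In the condensin group, SMC2 (YFR031C) is at chrVI:216594-220106 on the minus strand, SMC4 (YLR086W) at chrXII:302243-306499 on the plus strand and BRN1 (YBL097W) at chrII:40831-43095 on the plus strand. YCS4 (YLR272C) is at chrXII:683672-687202 on the minus strand and YCG1 (YDR325W) at chrIV:1117126-1120233 on the plus strand. The nearest annotated tRNA gene was between 0.657 kb (YCS4) and 67.9 kb (SMC4) away, with a median of 10.6 kb, against 16.6 kb over 6001 nuclear protein-coding genes. The genes were long, with coding lengths from 1701 bases for MCD1 to 4482 bases for SCC2.

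The 4 SMC genes are paralogs, so reads could in principle be divided between them. The stretch below codes for the Walker A motif, the ATP-binding loop that every SMC protein shares, and is shown because it is a conserved part of the family. The 24 capital bases code for the motif, with 12 bases on each side, read from R64 in the coding direction.
SMC1, chrVI:119513-119560, plus strand: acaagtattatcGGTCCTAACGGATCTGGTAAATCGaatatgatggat
SMC3, chrX:302721-302768, minus strand: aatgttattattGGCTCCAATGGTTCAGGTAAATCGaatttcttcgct
SMC2, chrVI:219978-220025, minus strand: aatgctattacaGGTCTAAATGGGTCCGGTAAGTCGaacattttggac
SMC4, chrXII:302783-302830, plus strand: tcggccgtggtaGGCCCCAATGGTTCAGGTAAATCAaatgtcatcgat
Across all 4 genes 15 of these 24 bases were the same, and the closest pair, SMC3 and SMC4, shared 22. Even so, 0 of the 31-base words of any of the 10 genes occurred in another reference coding sequence on either strand. All 40 estimated counts of the 10 genes in the 4 libraries were whole numbers, whereas 17.3% to 17.5% of all estimated counts per library were not. The estimated counts of these genes therefore carried no fraction from shared reads, and they lay between 223 and 1255 per library. Counting error alone is 6.7% of a count of 223 and 2.82% of a count of 1255.

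No member was called as different between the strains. At an adjusted p under 0.05, edgeR's quasi-likelihood test called 0 of 10, against 1.5% of the 6205 reading frames tested (93 in number). By direction, 0.806% of all reading frames were called higher and 0.693% lower in tDNA-less cells. DESeq2 and limma-voom also called 0 of 10, against 117 and 97 of the 6205 reading frames. At an unadjusted p under 0.05 there were 2 members, MCD1 and IRR1, against 11.8% of all reading frames. There was 1 in DESeq2 (MCD1), 2 in limma-voom (the same genes) and 0 on either TPM scale. The share of all reading frames at this unadjusted threshold was counted for edgeR only, so these counts have no background beside them. The median log2 fold change of the members was 0.10, against 0.00284 for all reading frames tested. Of the members 7 of 10 were positive, against 3141 of the 6205 reading frames tested. On log2(TPM + 1), where the libraries were not scaled further, 3 of 10 were positive, against 1608 of the 6205. There the median of all reading frames was -0.11 and that of the members -0.04. The largest absolute value, 0.32 for IRR1, was exceeded by 14.4% of all reading frames. In bulk RNA a change in the share of cells at a cell-cycle stage and a change in RNA per cell cannot be told apart.

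**Figure D1:**
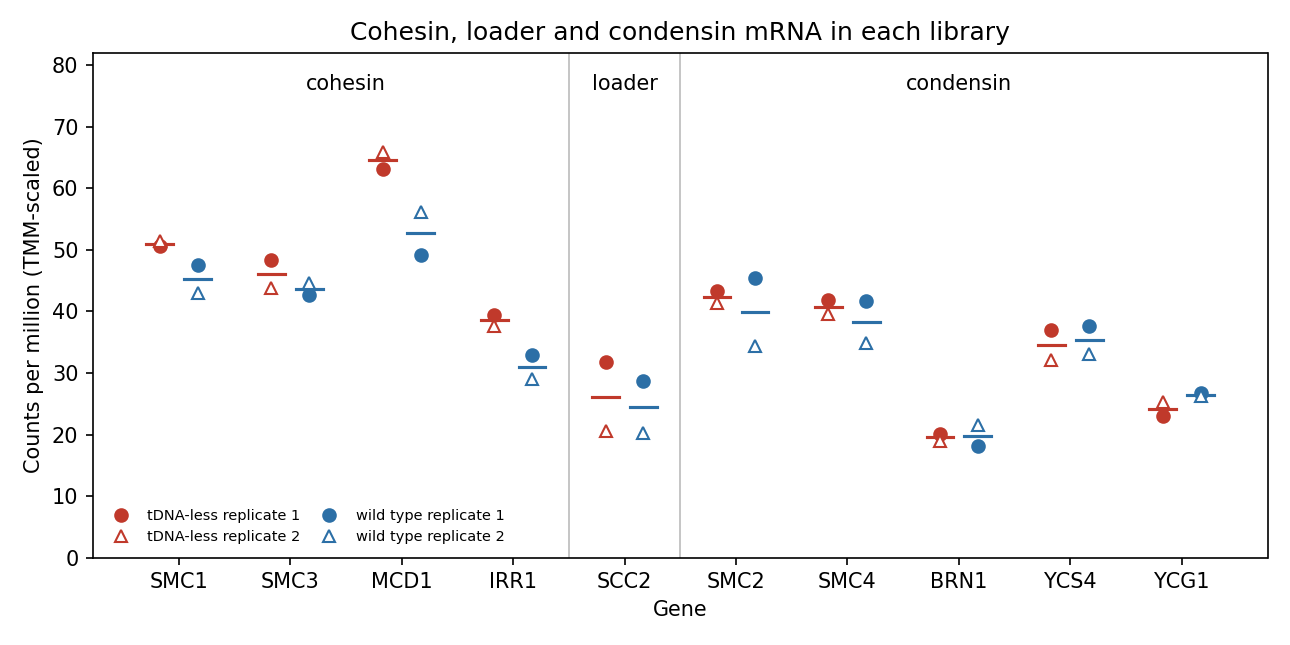
Counts scaled by library size (CPM, after TMM; y axis), of the 10 genes (x axis) in each library, with tDNA-less libraries left of wild-type libraries and a bar at the mean of each pair. The libraries of SMC1, MCD1 and IRR1 lay higher in the tDNA-less strain without overlap, those of YCG1 lower without overlap, and the other 6 genes overlapped.

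Among the cohesin genes, the 2 with the largest differences were those of the ring-closing and HEAT-repeat subunits. MCD1 codes for the kleisin that separase cleaves at anaphase onset. It had 63.2 and 65.9 CPM (counts scaled by library size, after TMM) in the tDNA-less libraries, against 49.2 and 56.2 CPM in the wild-type libraries. Both tDNA-less libraries lay above both wild-type libraries. The log2 fold change was 0.29 ± 0.09 (SE), a fold of 1.22 with a 95% interval from 1.05 to 1.42 (edgeR, adjusted p = 0.24). IRR1, also called SCC3, codes for the HEAT-repeat subunit that binds the kleisin. It had 39.4 and 37.7 CPM in the tDNA-less libraries, against 33.0 and 29.1 CPM in the wild-type libraries, again without overlap. Its log2 fold change was 0.32 ± 0.11 (SE), a fold of 1.25 with a 95% interval from 1.05 to 1.47 (edgeR, adjusted p = 0.249). For both genes the single-gene interval lay above 1 in the edgeR fit, and the value adjusted over all reading frames did not pass. On log2(TPM + 1) the log2 fold changes were 0.15 for MCD1 (limma, unadjusted p = 0.371) and 0.15 for IRR1 (limma, unadjusted p = 0.366). With 1 library left out, the log2 fold change in edgeR ranged from 0.19 to 0.39 for MCD1 and from 0.22 to 0.40 for IRR1. Neither gene kept an unadjusted p under 0.05 in all of these refits.

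The cohesin ATPases differed less. SMC1 had 50.6 and 51.4 CPM in the tDNA-less libraries, against 47.6 and 43.0 CPM in the wild-type libraries. The groups did not overlap, and the log2 fold change was 0.18 ± 0.09 (SE; edgeR, adjusted p = 0.518). SMC3, its partner in the ring, had 48.4 and 43.9 CPM in the tDNA-less libraries, against 42.7 and 44.7 CPM in the wild-type libraries. These values overlapped, and the difference was 0.08 ± 0.10 on the log2 scale (SE; edgeR, adjusted p = 0.829).

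SCC2, which with SCC4 loads cohesin onto chromosomes, varied more within each strain than between strains. It had 31.7 and 20.6 CPM in tDNA-less replicates 1 and 2, against 28.7 and 20.2 CPM in wild-type replicates 1 and 2. The higher library was 1.54 times the lower within the tDNA-less strain and 1.42 times within wild type, while the fold between strains was 1.07. Its 95% interval, from 0.767-fold to 1.51-fold, was the widest of the 10 genes (edgeR, adjusted p = 0.91).

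The 5 condensin genes had log2 fold changes on both sides of 0 (all below 0 on log2(TPM + 1)). SMC2, an ATPase, had 43.4 and 41.4 CPM in the tDNA-less libraries, against 45.5 and 34.3 CPM in the wild-type libraries (log2 fold change 0.10 ± 0.13). SMC4, the other ATPase, had 41.9 and 39.7 CPM in the tDNA-less libraries, against 41.7 and 34.8 CPM in the wild-type libraries (0.10 ± 0.11). For both ATPases the wild-type libraries were farther apart from each other than the strain means were. BRN1, the condensin kleisin, had 20.1 and 19.0 CPM in the tDNA-less libraries, against 18.1 and 21.5 CPM in the wild-type libraries (-0.03 ± 0.14). YCS4, a HEAT-repeat subunit, had 36.9 and 32.1 CPM in the tDNA-less libraries, against 37.6 and 33.2 CPM in the wild-type libraries (-0.03 ± 0.12). Both pairs overlapped. YCG1, the other HEAT-repeat subunit, had 23.0 and 25.2 CPM in the tDNA-less libraries, against 26.7 and 26.2 CPM in the wild-type libraries, with no overlap. Its log2 fold change of -0.13 ± 0.11 (SE) was the lowest of the 10 (edgeR, adjusted p = 0.719). The adjusted p-values of the other condensin genes were between 0.802 and 0.965.

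In all, the libraries of 4 of the 10 genes did not overlap between the strains in CPM (SMC1, MCD1, IRR1 and YCG1), against 42.8% of all reading frames. In TPM, those of SMC1 and MCD1 overlapped, while those of IRR1, YCG1 and YCS4 did not, against 43% of all reading frames. The fold between strains exceeded the fold between libraries of each strain for 3 genes, SMC1, MCD1 and IRR1, against 30.4% of all reading frames. Intervals rather than p-values give how large a difference these libraries allow under the edgeR fit. Taken gene by gene, the 95% interval of the fold in edgeR lay within 2-fold in either direction for all 10 genes and within 1.5-fold for 9, the exception being SCC2. Other fits gave larger errors and would give wider intervals, which were not computed. DESeq2 gave 0.31 ± 0.16 for IRR1 on the log2 scale, and limma-trend on log2(TPM + 0.1) gave -0.27 ± 0.20 for YCG1 (SE). The SE of each was 0.11 in edgeR.

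**Figure D2:**
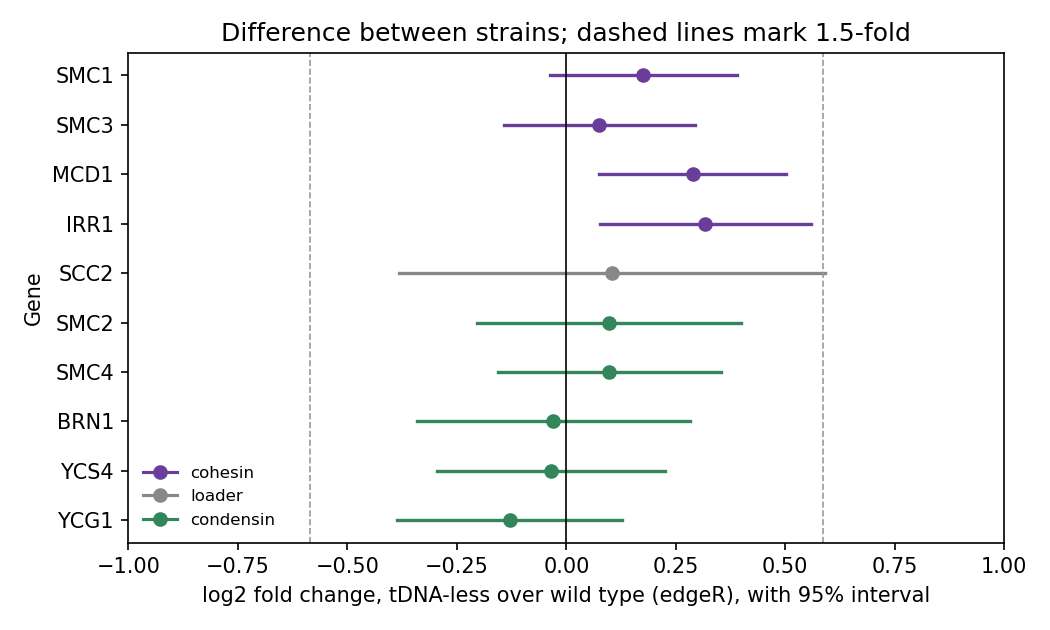
The log2 fold change of each gene, tDNA-less over wild type (x axis), from edgeR with its 95% interval (line), by gene (y axis) and coloured by complex. The intervals of MCD1 and IRR1 lie above 0, those of the other 8 genes include 0, and that of SCC2 alone reaches past the dashed line at 1.5-fold.

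Levels of the genes were compared per length in TPM. MCD1 was the most abundant, at 27.6 ± 3.07 TPM in the tDNA-less strain and 24.8 ± 3.59 TPM in wild type (SD, n = 2 each). Its range over the 4 libraries, 22.3 to 29.8 TPM, did not meet that of any other member. SMC1 followed with a mean of 9.36 TPM over the 4 libraries, then SMC3 with 8.71, SMC2 with 8.39, IRR1 with 7.21, YCS4 with 7.10, SMC4 with 6.59, BRN1 with 6.45 and YCG1 with 5.91 TPM. In this order, from SMC1 to YCG1, each neighbour's range over the libraries overlapped the next. SCC2 was lowest, at 3.90 ± 0.834 TPM in the tDNA-less strain and 4.05 ± 0.781 TPM in wild type (SD, n = 2 each). Its range, 3.31 to 4.60 TPM, lay below that of YCG1, 4.79 to 6.64 TPM. By mean TPM, MCD1 exceeded 58.3% of the reading frames tested and the other 9 genes between 9.33% and 28%.

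Within a library, ratios of TPM values do not depend on how libraries are scaled to each other. The summed TPM of the 4 cohesin genes over that of the 5 condensin genes was 1.58 and 1.66 in the tDNA-less libraries, against 1.29 and 1.47 in the wild-type libraries. Without MCD1 the ratio was 0.777 and 0.783 in the tDNA-less libraries, against 0.678 and 0.706 in the wild-type libraries. Both ratios were higher in each tDNA-less library than in either wild-type library, as descriptions of 2 libraries per strain without a test. The cohesin sum itself overlapped, at 49.96 and 56.48 TPM in the tDNA-less libraries, against 46.99 and 52.54 TPM in wild type. The condensin sum was lower in the tDNA-less libraries without overlap, at 31.5 and 34.1 TPM, against 36.5 and 35.7 TPM in wild type. Unlike the ratios, these sums depend on how libraries are scaled to each other. Between single subunits, MCD1 over SMC1 was 2.89 and 2.94 in the tDNA-less libraries, against 2.37 and 2.99 in the wild-type libraries, and overlapped. MCD1 over SMC3 was 3.03 and 3.46 in the tDNA-less libraries, against 2.66 and 2.89 in the wild-type libraries, without overlap. IRR1 over SMC1 was 0.833 and 0.784 in the tDNA-less libraries, against 0.741 and 0.723 in the wild-type libraries, and the kleisin ratio, MCD1 over BRN1, was 4.32 and 4.75, against 3.73 and 3.57 in wild type. Neither of these overlapped. The ratio of the ATPases, SMC1 over SMC3, was 1.05 and 1.18 in the tDNA-less libraries, against 1.12 and 0.966 in the wild-type libraries. That of the condensin ATPases, SMC2 over SMC4, was 1.27 and 1.28 in the tDNA-less libraries, against 1.33 and 1.21 in the wild-type libraries. The ATPase ratios overlapped between the strains in both complexes. MCD1 over IRR1 was 3.47 and 3.75 in the tDNA-less libraries, against 3.20 and 4.14 in the wild-type libraries, and overlapped. The ratios BRN1 over SMC2, YCS4 over YCG1 and BRN1 over YCG1 overlapped as well. For single reading frames, TPM did not overlap between the strains in 43% of all tested.

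**Figure D3:**
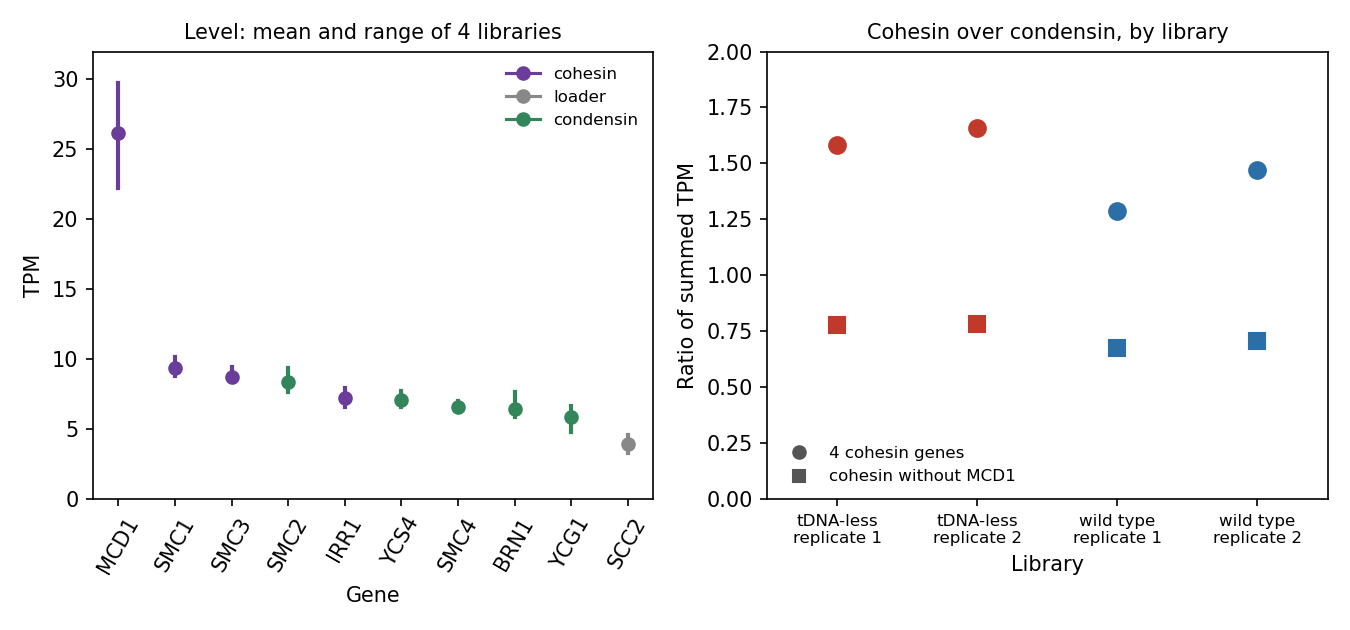
Left, TPM (y axis) of each gene (x axis) as the mean (point) and range (line) of the 4 libraries, with MCD1 at 26.2 TPM and SCC2 at 3.97 TPM at the ends. Right, the summed TPM of cohesin over condensin genes (y axis, a ratio) in each library (x axis), which was 1.58 and 1.66 in tDNA-less libraries (red) and 1.29 and 1.47 in wild-type libraries (blue) with all 4 cohesin genes.

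A feature that the choice of genes did not use is the MCB element, ACGCGT, the site through which the MBF factor drives transcription at the G1/S transition. Cohesin genes are known to be expressed at that stage. In the 300 bases before the start codon, 5 of the 10 genes held ACGCGT, a palindrome that reads the same on both strands, against 3.48% of 6001 nuclear protein-coding genes. These were the 4 cohesin genes and SMC2. The element was not particular to them. It was also found in 4 of 9 cohesin regulators, 4 of 8 genes of replication-linked cohesion, 2 of 3 topoisomerases, 2 of 8 SMC5/6 genes and 5 of 13 G1/S genes, and in 0 of 9 G2/M genes. Windows of 60 bases around the element, read from R64 in the direction of the gene, are shown because the cohesin genes share it. Capitals mark ACGCGT.
SMC1, chrVI:119280-119339, plus strand: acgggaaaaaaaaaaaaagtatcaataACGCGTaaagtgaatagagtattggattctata
SMC3, chrX:302934-302993, minus strand: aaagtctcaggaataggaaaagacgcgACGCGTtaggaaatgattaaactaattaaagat
MCD1, chrIV:444383-444442, plus strand: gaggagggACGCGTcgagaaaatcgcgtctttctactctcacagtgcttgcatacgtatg
IRR1, chrIX:308032-308091, minus strand: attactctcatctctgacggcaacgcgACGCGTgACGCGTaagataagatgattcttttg
SMC2, chrVI:220218-220277, minus strand: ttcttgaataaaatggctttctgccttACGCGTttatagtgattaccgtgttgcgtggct
IRR1 held 2 copies, which begin 135 and 128 bases before the start codon, and the others held 1, beginning 122 bases before it in SMC1, 117 in SMC3, 292 in MCD1 and 144 in SMC2. The SCB element, searched as CACGAAA on both strands, was found in 1 member, SMC4, against 4.5% of the 6001 genes. The SMC4 window held no ACGCGT, so the matches do not overlap, and a match describes the sequence and not binding.

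The 5 genes with ACGCGT had a median log2 fold change of 0.18 and the 5 without it one of -0.03, a split made with these values known. Over the genome, 198 other tested genes with ACGCGT in this window had a median of 0.04, with 63.6% of them positive, against a median of 0.00284 and 50.7% positive in 5523 tested genes without it. Of the 198, 1 rose and 0 fell in edgeR, or 0.505%, against 1.56% of the genes without the element. The gene that rose was CYC1, cytochrome c, named after its values were seen (log2 fold change 0.44 ± 0.09 SE; edgeR, adjusted p = 0.0407). Its call was lost on both TPM scales, without either tDNA-less library and without wild-type replicate 1 (adjusted p up to 0.501). Its log2 fold change in those refits was between 0.36 and 0.50.

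Of 50 genes on lists of known partners and cell-cycle markers, edgeR called 0, against 93 of the 6205 reading frames tested. DESeq2 and limma-voom also called 0, against 117 and 97 of the 6205. In edgeR 8 of the 50 had an unadjusted p under 0.05, against 11.8% of all reading frames. Signs in these lists moved with the scaling, as did those of all 6205 reading frames tested (3141 positive in the edgeR fit, 1608 on log2(TPM + 1)). On log2(TPM + 1) the median of all reading frames was -0.11. The list medians were -0.03 for cohesin regulators, -0.20 for the SMC5/6 complex and -0.02 for replication-linked cohesion. They were -0.10 for topoisomerases, 0.06 for G1/S genes and -0.16 for G2/M genes. Lists with a positive median in the edgeR fit lay above the median of all reading frames on this scale. Those with a negative median lay below it.

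Of 9 cohesin regulators, 8 had a positive log2 fold change in the edgeR fit (4 on log2(TPM + 1)), with a median of 0.11. PDS5, which binds the ring and regulates its hold on chromatin, had 48.7 and 37.6 CPM in the tDNA-less libraries, against 36.5 and 30.0 CPM in the wild-type libraries (log2 fold change 0.38 ± 0.14; edgeR, adjusted p = 0.313). ECO1, the acetyltransferase that modifies SMC3 to establish cohesion, had 6.26 and 5.49 CPM in the tDNA-less libraries, against 5.11 and 3.80 CPM in the wild-type libraries (0.41 ± 0.28; edgeR, adjusted p = 0.621). With 1 library left out, the log2 fold change ranged from 0.18 to 0.56 for PDS5 and from 0.20 to 0.62 for ECO1. The list also held REC8, the meiotic kleisin that takes the place of MCD1, which was low in both strains at 1.59 and 0.542 CPM in the tDNA-less libraries and 0.73 and 1.25 CPM in the wild-type libraries.

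In the SMC5/6 complex, a relative of cohesin that acts in DNA repair, 3 of 8 genes were positive and 5 negative (1 and 7 on log2(TPM + 1)), with a median of -0.10. NSE1, its RING-domain subunit, had 25.5 and 27.0 CPM in the tDNA-less libraries, against 37.1 and 34.5 CPM in the wild-type libraries. Both tDNA-less libraries were lower, and the log2 fold change of -0.44 ± 0.11 (SE) had the lowest adjusted p of the 50 list genes (edgeR, adjusted p = 0.0978). NSE3 had a log2 fold change of -0.31 ± 0.19, with libraries that overlapped, and ranged from -0.55 to -0.10 with 1 library left out. Of 8 genes that link cohesion to replication, 6 were positive (3 on log2(TPM + 1); edgeR median 0.12). MRC1, a replication checkpoint protein on chromosome III, had 42.3 and 42.0 CPM in the tDNA-less libraries, against 35.5 and 34.5 CPM in the wild-type libraries (0.27 ± 0.09; edgeR, adjusted p = 0.266). CSM3, of the same fork complex, had a log2 fold change of 0.16 ± 0.15. For DCC1, also of this list and on chromosome III, the value was -0.11 ± 0.19, with libraries that overlapped (edgeR, adjusted p = 0.891). Among the 3 topoisomerases, enzymes that change DNA winding, TOP3 had a log2 fold change of 0.42 ± 0.21, TOP2 one of 0.03 ± 0.08 and TOP1 one of -0.07 ± 0.08 (median 0.03). With 1 library left out, TOP3 ranged from 0.19 to 0.61.

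The cell-cycle lists hold genes whose mRNA is known to peak at one stage. Of 13 G1/S genes, 12 had a positive log2 fold change (9 on log2(TPM + 1)), with a median of 0.20. In edgeR 5 of the 13 had an unadjusted p under 0.05, against 11.8% of all reading frames. The lists were chosen with earlier results of these data known. RFA1, the large subunit of the single-strand DNA binding protein, had 73.9 and 75.9 CPM in the tDNA-less libraries, against 55.7 and 64.1 CPM in the wild-type libraries (0.32 ± 0.09; edgeR, adjusted p = 0.178). For CDC9, the DNA ligase of replication, the difference on the log2 scale was 0.32 ± 0.12 (edgeR, adjusted p = 0.295), and from 0.18 to 0.43 with 1 library left out. CDC21, POL30, CLB5 and POL1, also on the G1/S list, had log2 fold changes of -0.03, 0.03, 0.04 and 0.06. Of 9 G2/M genes, 3 were positive and 6 negative (0 and 9 on log2(TPM + 1)), with a median of -0.03. CLB2, the main mitotic cyclin, had a log2 fold change of -0.15 ± 0.12, and CDC5, the polo kinase, one of -0.10 ± 0.10. In the edgeR fit the G1/S median and the values of the 4 cohesin genes were positive, as were those of SMC2, SMC4 and SCC2. On log2(TPM + 1) SMC3, SMC2, SMC4 and SCC2 were negative. The part of the cell-cycle stage of the cultures in the values of these genes was not tested.

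**Figure D4:**
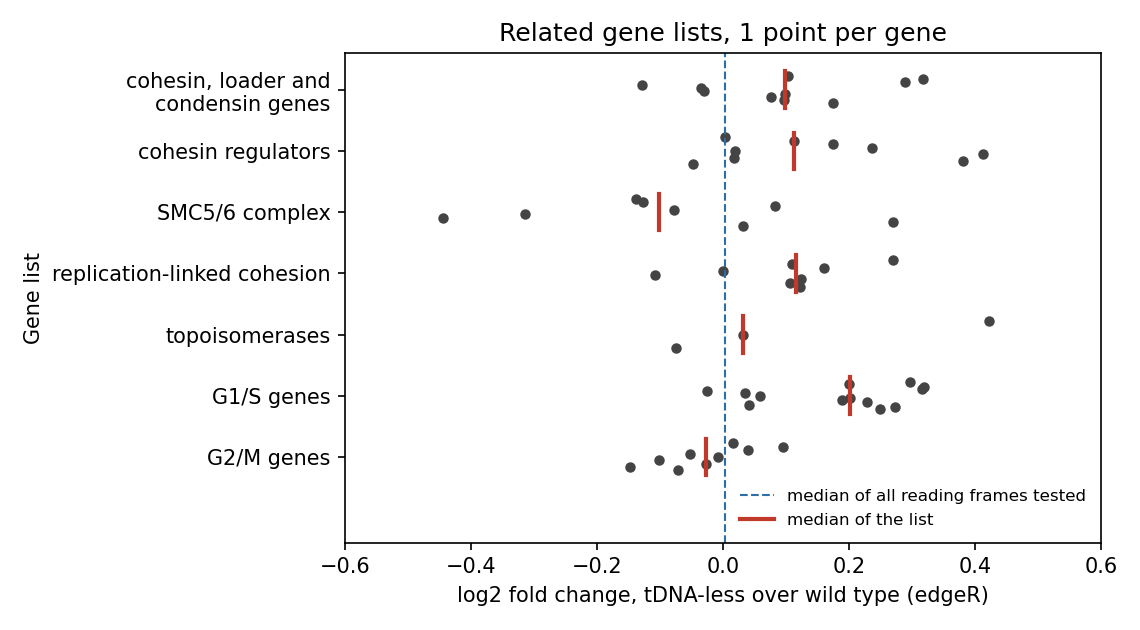
The log2 fold change of each gene, tDNA-less over wild type (x axis), in each list (y axis), with the median of the list as a bar and the median of all 6205 reading frames tested as a dashed line. The medians run from -0.10 in the SMC5/6 complex to 0.20 in the G1/S genes in the edgeR fit, and no gene shown passed edgeR's adjusted p of 0.05.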

How the data were processed

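Total RNA from 4 yeast cultures was extracted with a column kit and made into directional libraries, per the labels' protocols. Kallisto, sleuth and the build sacCer3 are named in the submitters' processing notes. Their versions, the index and the strand setting were not given in the sources used here. Tables as deposited hold, per reading frame, the authors' estimated counts, which need not be whole, and TPM values, which divide them by effective length and library total. Estimated counts were rounded, filtered with filterByExpr (minimum count 10), scaled by TMM and tested by the quasi-likelihood test of edgeR 4.0.16 (with limma 3.58.1 and DESeq2 1.42.0 in R 4.3.3), with Benjamini-Hochberg adjustment over 6205 reading frames. SE is the absolute log2 fold change over the square root of F, and the 95% intervals use it with the moderated degrees of freedom. The biological coefficient of variation was 9.82%. The fit was checked on simulated counts. Alternatives were DESeq2 size factors, other filters, leaving out the 4 most counted reading frames, DESeq2, limma-voom, limma-trend on TPM, a replicate block and each library left out. With 2 libraries per strain an exact two-sided permutation test cannot go below p = 0.333, so p-values come from the fitted model. Scaled by library total only, libraries of a strain differed by more than counting noise (chi-square per degree of freedom 45.1 in tDNA-less, 61.4 in wild type). These values were taken before TMM and include the differing share of the 4 most counted reading frames, so they do not measure the spread left in the fit.

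Positions and sequences came from R64, the assembly that sacCer3 represents, in which 6022 reading frames were found by systematic name, 99.5% with the same coding length. Members and lists were chosen with earlier results of these data known. Named were all members and, of each other list, the 2 genes with the largest absolute fold change and any called. Some other list genes were named beside them.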

Additional observations from a re-analysis of the deposited data

How the results depend on the processing

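Under 13 alternatives the count of members called remained 0, and over 130 refitted member values 0 were called, 114 kept their sign and 16 did not. SMC1, MCD1, IRR1 and YCG1 kept their sign in every alternative. MCD1 came nearest to the threshold with the replicate block (edgeR, adjusted p = 0.0572, range over its alternatives 0.0572 to 0.76), as did IRR1 (0.0907, range 0.0907 to 0.758). Of the list genes, 3 were called with that block, PDS5, NSE1 and RFA1 (adjusted p = 0.0385, 0.0278 and 0.0312), and the block gave 282 reading frames called in all, against 93 without it. The numbers do not pair the libraries by label. Deviations of same-numbered libraries from their strain means correlated at 0.241 over genes, a value that rests on 2 pairs. On log2(TPM + 1) and log2(TPM + 0.1), limma-trend called 52 reading frames (32.7% of them higher, against 53.8% in the edgeR fit) and 39 (28.2% higher), with the median of all genes at -0.11 and -0.12. There SMC2 (-0.0389 and -0.0424), SMC3 (-0.0596 and -0.0654), SMC4 (-0.0414 and -0.0469), SCC2 (-0.0466 and -0.0577), MFA1 (-0.0758 and -0.0759) and STE6 (-0.0226 and -0.0233) turned negative. Relative to the median on log2(TPM + 1), all 10 members had the sign of the edgeR fit. With a library left out, 21 (without tDNA-less replicate 1) to 91 reading frames were called, and 30 without tDNA-less replicate 2. Fold changes then ranged from -0.10 to 0.30 for SMC2, -0.0335 to 0.22 for SMC4, -0.15 to 0.11 for BRN1, -0.14 to 0.0656 for YCS4, -0.24 to 0.39 for SCC2, -0.21 to 0.0015 for CDC5 and -0.58 to 0.34 for MF(ALPHA)2. The cause of these changes was not tested. The intervals rest on 2 libraries per strain and on variances moderated over all reading frames tested, so they do not measure a gene's own spread alone. Counting error was at most 6.7% of a member's count.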
